A study of Rattus norvegicus with 24 samples.

Results

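The basal and the apical portion of the spiral ganglion were compared in deafened Sprague-Dawley rats of both sexes at postnatal day 32 (P32). The comparison takes in 6 of the 24 samples of the series, 3 of the basal and 3 of the apical portion, and was made over 5750 named genes. All 6 came from rats given kanamycin intraperitoneally at 400 mg/kg once a day from P8 to P16. Kanamycin is an aminoglycoside antibiotic that kills hair cells. No deafening method other than kanamycin was used, so effects of the drug itself and of the hair cell loss cannot be told apart. The other samples, from uninjected hearing littermates and from deafened rats of P60, enter through the shared estimate of the spread. The same contrast in P32 hearing and in P60 deaf ganglia, 6 samples each, is set beside it. Each sample pooled 4 to 6 ganglia freed of bone, spiral ligament and organ of Corti, and cDNA made from its amplified RNA was read as Cy3 brightness on 1-colour arrays. Nothing used here says how many animals gave the ganglia of a pool, or that pools were separate litters, so p-values measure the spread between pools. The median intensity of the 6 samples was 1997 to 2221 linear units, and 3 arrays a portion set the precision.

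The cochlea is ordered by pitch: the base responds to high frequencies and the apex to low ones. The neurons of the spiral ganglion carry the signal of the hair cells to the brainstem, most of them as myelinated type I neurons to inner hair cells and a minority as type II neurons to outer hair cells. Schwann cells and satellite glia ensheath them in the ganglion, while oligodendrocytes and astrocytes take over in the central part of the auditory nerve, which enters the cochlea at its basal end. Aminoglycosides usually destroy basal hair cells first, and after the loss of hair cells the neurons degenerate over weeks.

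The samples carried the markers of a spiral ganglion. Pmp22, a peripheral myelin protein, lay between 15.41 and 15.70 log2 units of intensity in all 6 samples. Of the neuronal markers, Snap25 (vesicle fusion) lay between 13.48 and 14.88, Tubb3 (a neuronal tubulin) between 12.65 and 13.72, and Slc17a7 (the glutamate transporter VGLUT1) between 10.29 and 11.89. Nefl was at 12.63 to 14.01, Nefh at 11.20 to 15.53 and Gata3 at 9.95 to 13.16. Ocm, a calcium-binding protein of outer hair cells, was at 4.33 to 8.16, the lower end of the scale. For orientation, the median over all 26419 transcripts on the arrays was 8.219 to 8.316 log2 units per sample, and whether a value near or below it stands above background was not tested.

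One sample outside the comparison differed from its group in part. In P32 hearing apex replicate 1 Calb1 was at 13.40 log2 units, against 8.20 and 9.62 in replicates 2 and 3 of its group. Its mean correlation with the 3 P32 deaf base samples was 0.913, against 0.848 and 0.881 for those replicates. Its mean correlation with the other samples of its own group, 0.869, lay between theirs (0.854 and 0.889), so by that measure it did not stand apart. It enters the test of deaf samples only by way of the spread and platform term that all samples share, so counts of calls, and genes whose call it changes, are given with and without it. In what follows, the unpaired fit uses group means and the platform term. The paired fit adds a block for the apex and base sample of the same age, condition and replicate number. The paired fit of 23 samples also leaves out P32 hearing apex replicate 1. Called means an adjusted p of limma under 0.05 over all 5750 genes, and statements on calls cover these fits with 24 and 23 samples unless another is named. Differences are base minus apex in log2 units ± SE of the unpaired fit, with 3 samples a group. That SE includes spread shared by both samples of a pair, so a difference below it can still be called in the paired fit.

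The base and the apex differed most clearly in Fst, which was higher in the apex, and in a larger set of genes that were higher in the base. The unpaired fit called 2 of 5750 genes (0.0348%), Fst in the apex and Adtrp in the base (0.0174% each). An unadjusted p under 0.05 was found for 227 genes (3.95%), of which 193 (3.36%) were higher in the base and 34 (0.591%) in the apex. Samples of the same number deviated together from the mean of their portion, with correlations of 0.852 to 0.919. The paired fit called 16 genes (0.278%), 14 higher in the base (0.243%) and 2 in the apex (0.0348%). All 16 differed in 1 direction in 3 of 3 pairs. Of all genes, 19.1% were higher in the base in 3 of 3 pairs and 26.5% in the apex. Since the fit chose the 16 by these pairs, their agreement is a description. The count of called genes was 1 without pair 1 (Popdc3), 0 without pair 2 (292 genes with an unadjusted p under 0.05) and 0 without pair 3 (505). With only the 6 P32 deaf samples the paired fit called 41 genes (0.713%), 39 higher in the base (0.678%), and shared 8 with the 16. Without P32 hearing apex replicate 1 the unpaired fit called 24 genes (0.417%), 22 of them higher in the base (0.383%), and the paired fit 114 (1.98%), 93 higher in the base (1.62%) and 21 in the apex (0.365%). The 114 held all 16. The calls leaned to the base while all genes together did not: over all genes the median difference was -0.04, and 2428 of the 5750 were higher in the base in the mean. All base samples lay above all apex samples for 182 genes (3.17%), and all apex samples above all base samples for 69 (1.2%).

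**Figure D1:**
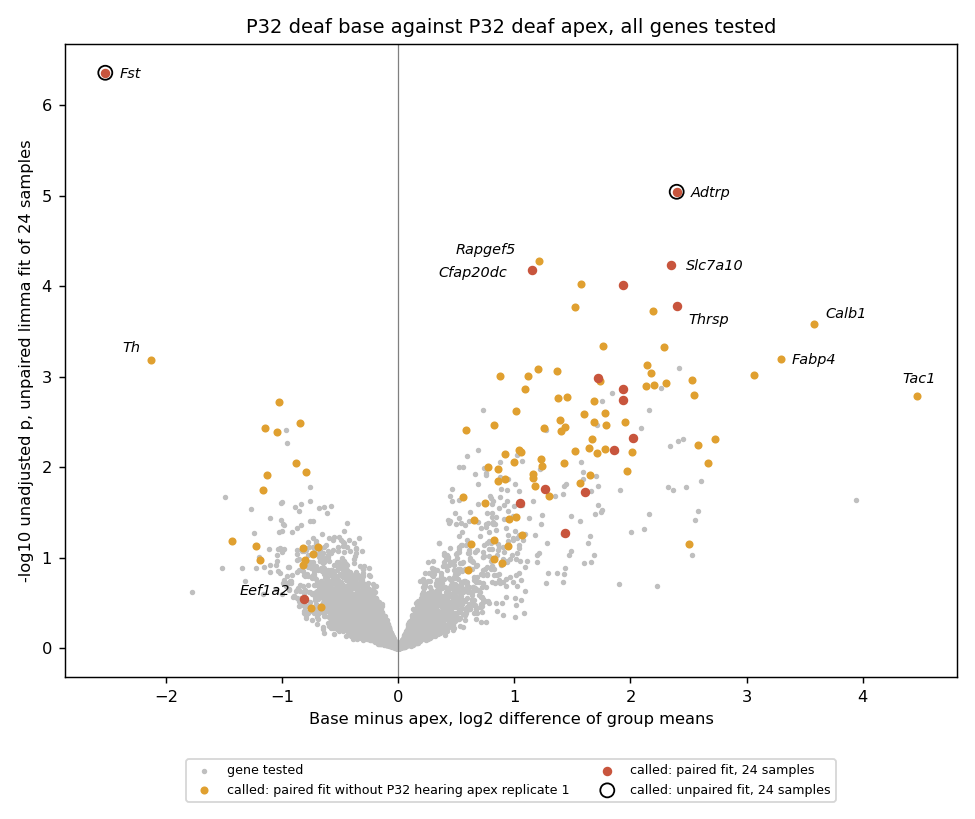
Each point is 1 of 5750 genes, with the log2 difference of base minus apex in P32 deaf ganglia on the x axis and -log10 of the unadjusted p of the unpaired limma fit on the y axis; colours mark genes called in the paired fits and open circles those called in the unpaired fit. Fst at -2.52 and Adtrp at 2.40 have the smallest p, and 93 of the 114 genes called in the paired fit of 23 samples lie on the side of the base.

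Of the 16 genes called in the paired fit, 14 have a promoter window (250 bases before to 50 after the start) in RefSeq, assembly GRCr8, 15 windows in all. 4 of them are shown, all of genes higher in the base and chosen after their values were seen, for Adtrp, which the unpaired fit called, for transporters and for a neuropeptide: Adtrp (chr17:23113328-23113627, + strand), Slc7a10 (chr1:96965872-96966171, + strand), Slc6a12 (chr4:156257268-156257567, + strand) and Adcyap1 (chr9:120556424-120556723, - strand). Adtrp has a further window that is not shown. Capitals mark matches on either strand to TATAAA (the TATA box), CCAAT (the CCAAT box) or CACGTG (an E-box).
Adtrp: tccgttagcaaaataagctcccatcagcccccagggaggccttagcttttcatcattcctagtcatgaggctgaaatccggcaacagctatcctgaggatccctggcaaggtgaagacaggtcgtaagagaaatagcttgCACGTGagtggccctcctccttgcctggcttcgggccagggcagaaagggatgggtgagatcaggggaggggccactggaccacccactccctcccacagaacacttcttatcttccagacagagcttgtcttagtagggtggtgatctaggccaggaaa
Slc7a10: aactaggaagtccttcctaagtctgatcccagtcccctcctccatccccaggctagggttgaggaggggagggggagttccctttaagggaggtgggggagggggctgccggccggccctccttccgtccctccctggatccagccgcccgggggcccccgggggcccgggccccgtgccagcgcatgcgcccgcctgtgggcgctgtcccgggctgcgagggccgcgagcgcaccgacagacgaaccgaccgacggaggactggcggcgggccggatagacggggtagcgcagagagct
Slc6a12: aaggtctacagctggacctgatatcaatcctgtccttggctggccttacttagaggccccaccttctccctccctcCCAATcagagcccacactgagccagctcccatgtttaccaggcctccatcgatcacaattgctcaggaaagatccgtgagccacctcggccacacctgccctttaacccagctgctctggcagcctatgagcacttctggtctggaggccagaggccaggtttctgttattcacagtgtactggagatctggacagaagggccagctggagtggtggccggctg
Adcyap1: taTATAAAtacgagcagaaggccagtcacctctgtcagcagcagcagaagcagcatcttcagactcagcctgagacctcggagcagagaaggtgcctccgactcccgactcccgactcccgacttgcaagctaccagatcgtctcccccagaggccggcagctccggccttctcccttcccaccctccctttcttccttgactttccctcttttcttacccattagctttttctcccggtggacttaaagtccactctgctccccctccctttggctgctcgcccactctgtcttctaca
CCAAT was found in 6 of the 15 windows, those of Cfap20dc, Flacc1, Fmo2, Slc25a21, Slc6a12 and Thrsp, against 37.5% of all 33469 windows of that length. TATAAA was found in 1 (Adcyap1) against 14.2% of all, and CACGTG in 1 (Adtrp) against 6.42%. The Slc7a10 window holds none of these letters and has 72.3% G and C, where the median window has 51.7%. A match describes the letters only.

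Fst encodes follistatin, a secreted protein that binds activins and blocks them and, in the cochlea of the mouse, is known as a protein of the apex. It was at 12.28, 12.27 and 12.59 log2 units in apex replicates 1 to 3 and at 9.14, 10.13 and 10.31 in the base. The groups did not overlap, the apical samples lay close together, and basal replicate 1 was the lowest. The difference was -2.52 ± 0.33, a 5.74-fold higher intensity in the apex (adjusted p = 0.00252; 0.0117 paired). Fst stayed called without any 1 of the 6 samples (adjusted p up to 0.0445) but not when the spread was taken from the 6 samples alone and unpaired (0.304), on the 16-sample platform alone (0.396), or in the paired fit without pair 1 (0.103), pair 2 (0.101) or pair 3 (0.0726). Of the 23 genes tested for patterning and tonotopy along the cochlea, Fst was the only one called in either fit of 24 samples, and the list's median was -0.14 beside -0.04 for all genes. Bmp4, a ligand that patterns the sensory epithelium, was at 10.15, 11.21 and 11.59 in the apex and 11.55, 12.70 and 12.89 in the base. The groups overlapped but every pair was higher in the base, and the difference of 1.40 ± 0.41 was not called with 24 samples (0.0807 paired) and was called without P32 hearing apex replicate 1 (adjusted p = 0.0466; 0.0196 paired). The paired fit of 23 samples also called Aldh1a2, an enzyme that makes retinoic acid, at 1.71 ± 0.56 (adjusted p = 0.0234; 0.19 with 24 samples). Kcnd2, a transient potassium channel subunit, had all basal samples (9.46 to 10.62) above all apical ones (7.69 to 8.72), but its difference of 1.88 ± 0.61 was called only in the paired fit of the 6 P32 deaf samples (adjusted p = 0.0325; 0.201 with 24 samples and 0.068 with 23).

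Other genes higher in the apex were called only without P32 hearing apex replicate 1 or only in the paired fit. Th, tyrosine hydroxylase, makes catecholamines and marks type II neurons of the mouse cochlea as well as sympathetic fibres. It was at 10.92, 10.76 and 10.41 in the apex and 8.78, 9.01 and 7.91 in the base, with no overlap. The difference was -2.13 ± 0.52 (adjusted p = 0.236; 0.126 paired; 0.046 unpaired and 0.012 paired without that sample). Gata3, a transcription factor that spiral ganglion neurons need and that type II neurons keep at a high level, was at 12.60, 13.16 and 10.79 in the apex and 11.72, 11.22 and 9.95 in the base. Its groups overlapped because replicate 3 was low in both portions, and only the paired fit of 23 samples called its difference of -1.22 ± 0.64 (adjusted p = 0.0198; 0.095 with 24 samples). That fit also called Isl1, a transcription factor of sensory neurons (-0.82 ± 0.44, adjusted p = 0.0467), and Gfra1, the GDNF receptor (-0.84 ± 0.25, adjusted p = 0.03). Eef1a2, a translation elongation factor of neurons and muscle, was the second apical gene of the paired fit of 24 samples. It was lower in the base by 0.74, 1.12 and 0.56 in the 3 pairs, while the groups overlapped widely (11.64 to 14.54), and its adjusted p was 1 unpaired and 0.043 paired.

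Adtrp encodes a membrane hydrolase of fatty acid esters that in blood vessel cells regulates coagulation inhibitors. It was at 7.54, 5.77 and 7.24 log2 units in the apex and 9.82, 8.76 and 9.17 in the base, so every basal sample was above every apical one. The difference was 2.40 ± 0.39, or 5.27-fold (adjusted p = 0.0261; 0.0117 paired). The call was lost without apex replicate 1 (adjusted p = 0.273), apex replicate 2 (0.108), base replicate 1 (0.0687), base replicate 2 (0.0965) or base replicate 3 (0.204), and without the platform term (0.483). The apical values lie below the median of all transcripts, so the size of the difference is uncertain. The remaining calls of the paired fit were higher in the base too, and several encode transporters and enzymes of lipid metabolism.

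Slc7a10, a neutral amino acid transporter of astrocytes, was at 7.03, 8.43 and 6.95 in the apex and 9.49, 9.99 and 9.98 in the base (2.35 ± 0.45, adjusted p = 0.0759; 0.013 paired; 0.0142 unpaired without P32 hearing apex replicate 1). Slc6a12, a betaine and GABA transporter, differed by 1.61 ± 0.62 (paired adjusted p = 0.0117), and Slc25a21, a mitochondrial oxodicarboxylate carrier, by 1.94 ± 0.39 (0.0285; unpaired 0.0794, and 0.00842 without that sample). For these 3 transporters the groups did not overlap. Thrsp, a regulator of fatty acid synthesis, was at 5.54, 6.47 and 7.01 in the apex and at 7.93, 9.10 and 9.20 in the base, without overlap (2.40 ± 0.51, paired adjusted p = 0.0117; unpaired 0.109, and 0.0272 without that sample). Slc27a5, a bile acid and fatty acid CoA ligase, was at 1.93 ± 0.51 (0.0415) and Akr7a3, an aldehyde reductase, at 1.05 ± 0.43 (0.013), with overlapping groups and 3 of 3 pairs higher in the base. Fmo2, a flavin monooxygenase, was at 1.43 ± 0.69 (0.043).

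Adcyap1 encodes PACAP, a neuropeptide that injured neurons make. It was at 8.04, 7.86 and 9.70 in the apex and 9.75, 10.70 and 11.22 in the base, with the lowest basal sample just above the highest apical one, and differed by 2.02 ± 0.63 (adjusted p = 0.414; 0.0305 paired). Crybb1, a crystallin first known from the lens, was at 1.72 ± 0.44 (0.0117 paired), and Wfdc1, a secreted protease inhibitor-like protein, at 1.94 ± 0.53 (0.0305 paired). Popdc3, a membrane protein of muscle, was at 1.86 ± 0.60 (0.0219 paired). The other two calls of the paired fit were Cfap20dc (1.15 ± 0.22, 0.0117 paired; unpaired 0.0759, and 0.0179 without P32 hearing apex replicate 1) and Flacc1 (1.27 ± 0.48, 0.013 paired). Of the 16 genes, 10 had groups that did not overlap. Over all genes the base lay wholly above the apex for 3.17% and the apex wholly above the base for 1.2%. Since the 16 were chosen by these values, the count of 10 is a description.

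**Figure D2:**
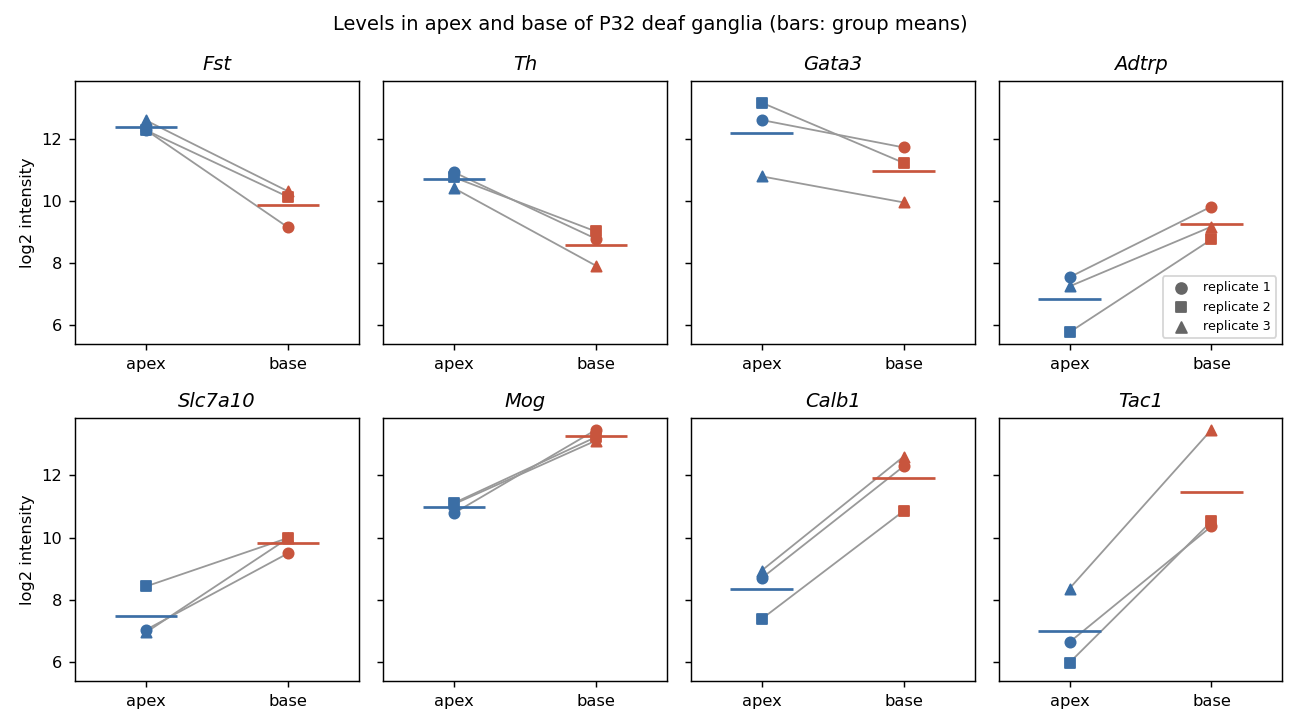
Log2 intensity (y axis) of 8 genes in the 3 apical and 3 basal samples of P32 deaf ganglia; each line links a numbered pair and bars are group means. Fst, Th and Gata3 lie higher in the apex and the other 5 genes higher in the base, in 3 of 3 pairs each, and Gata3 is the one gene of the 8 whose groups overlap.

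The list of astrocytes and satellite glia, which joins central and peripheral glia, leaned to the base. Of 24 tested genes of astrocytes and satellite glia, 11 had all basal samples above all apical ones, which 3.17% of all genes had, and none the opposite, and 18 were higher in the base in 3 of 3 pairs, which 19.1% of all genes were. The median difference was 0.41, against -0.04 for all genes. Slc7a10 was called in the paired fit, and with it Ntsr2, Itih3, Aqp4 and Aldh1l1 in the paired fit of 23 samples. Ntsr2, a neurotensin receptor of astrocytes, was at 9.82, 10.19 and 10.23 in the apex and 12.49, 12.21 and 12.14 in the base (2.20 ± 0.47, adjusted p = 0.109; 0.0554 paired; 0.0129 unpaired and 0.0177 paired without P32 hearing apex replicate 1). Aqp4, the water channel of astrocyte end feet, was at 8.65, 9.06 and 9.03 in the apex and 11.49, 11.87 and 11.02 in the base. No apical sample came near a basal one, and the difference was 2.55 ± 0.69 (0.153 paired; 0.0382 paired without that sample). Aldh1l1, a folate enzyme that marks astrocytes, was at 1.69 ± 0.49 and Itih3 at 1.74 ± 0.45 (0.0345 and 0.026 in that fit). Gfap, the astrocyte filament, was at 11.54, 11.94 and 10.84 in the apex and 14.20, 12.62 and 12.66 in the base, a difference that was not called (1.72 ± 0.65, 0.178 paired without that sample). Several members that other glia also make had small differences: Apoe was at 0.14 ± 0.18, Glul at -0.03 ± 0.24, Vim at -0.10 ± 0.14 and Clu at 0.05 ± 0.18. The summed intensity of the list was 273973 to 302769 linear units in the apical samples and 334942 to 368076 in the basal ones.

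Genes of oligodendrocytes and central myelin also leaned to the base. Of 22 tested, 9 had all basal samples above all apical ones (3.17% of all genes) and none the opposite, the median was 0.40, and the summed intensity was 156843 to 191876 in the apex and 225357 to 297449 in the base. Mog, a glycoprotein on the outside of central myelin, was at 10.79, 11.11 and 11.08 in the apex and 13.47, 13.24 and 13.12 in the base. This was a 4.87-fold difference with little spread within either group (2.28 ± 0.53, adjusted p = 0.206; 0.0921 paired; 0.0415 paired without P32 hearing apex replicate 1). Ermn, a cytoskeletal protein of oligodendrocytes, was at 2.73 ± 0.85 (0.0435 in the last fit), and Mobp, a basic protein of central myelin, at 2.41 ± 0.75, not called there (0.144). Klk6, Hapln2, Omg and Aspa did not overlap between the portions either, at 1.91 ± 0.73, 2.37 ± 0.91, 0.67 ± 0.24 and 0.45 ± 0.27, and were not called.

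Schwann cell and peripheral myelin genes leaned to the apex in their median and pairs, but not in every measure. Of 28 tested none was called in any of the fits, 16 were higher in the apex in 3 of 3 pairs, which 26.5% of all genes were, and the median was -0.25. Within pairs 1, 2 and 3 the median was -0.12, -0.495 and -0.14. All basal samples lay above all apical ones for 2 members (3.17% of all genes), and none had the opposite. The summed intensity overlapped, at 272646 to 317684 in the apex and 265472 to 342861 in the base. Prx, a scaffold of Schwann cells, was at -0.96 ± 0.73, Pmp22 at -0.12 ± 0.15 and Egr2, the transcription factor of peripheral myelination, at -0.85 ± 0.80. Mag, a glycoprotein of the inner myelin layer that oligodendrocytes make too, had all basal samples above all apical ones (1.42 ± 0.55). In such bulk samples fewer cells of a type and less RNA per cell cannot be told apart, and the part of central glia in the other differences was not tested.

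Genes of the meninges and the arachnoid, the coverings of brain and nerve, leaned to the base, with 0 of 13 tested called in a fit of 24 samples. Of the 13, 6 had all basal samples above all apical ones (3.17% of all genes) and 1 the opposite (1.2%), and the median was 0.69, with 130212 to 157813 linear units summed in the apex and 170945 to 197283 in the base. Slc22a8, an organic anion transporter, was at 10.97, 11.54 and 11.25 in the apex and 12.96, 12.79 and 12.73 in the base (1.57 ± 0.31, adjusted p = 0.0794; 0.0612 paired; 0.0129 unpaired and 0.0152 paired without P32 hearing apex replicate 1). Slc47a1, an exporter of organic cations, was at 2.58 ± 0.82 (0.0198 in the last fit), and Aldh1a2, named above, was the other member called there. Slc6a13, a GABA transporter of the leptomeninges, was at 0.69 ± 0.22 and not called, and Ptgds, a prostaglandin synthase, was at 0.19 ± 0.14. Ccn3, a matrix-associated signalling protein, went the other way at -0.96 ± 0.29, with no overlap and no call.

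Neuronal genes leaned towards the apex without passing the tests one by one. Of the 26 tested neuron identity genes none was called in a fit of 24 samples, where the paired fit called 0.278% of all genes. The median was -0.28, and 14 were higher in the apex in 3 of 3 pairs, which 26.5% of all genes were. Gata3 and Isl1 were the members called in the paired fit of 23 samples, which called 0.365% of all genes as higher in the apex. Slc17a7 was at 11.16, 11.89 and 11.57 in the apex and 10.29, 10.99 and 10.55 in the base, without overlap, and its difference of -0.93 ± 0.67 was not called (paired adjusted p = 0.343). Tubb3 did not overlap either (-0.47 ± 0.39). Pvalb (0.04 ± 0.18), Ntrk3 (-0.01 ± 0.36), Nefl (-0.04 ± 0.25) and Stmn2 (0.13 ± 0.22) had differences below their SE. Prph, peripherin, an intermediate filament that type II neurons keep, was at 0.82 ± 0.37 and higher in the base in all pairs, uncalled. So type II markers did not share a direction: Th and Gata3 were higher in the apex in the mean, Prph and Tac1 in the base.

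Sodium and calcium channel genes and presynaptic genes had the lowest medians among the lists with more than 10 tested genes. The 28 presynaptic genes had a median of -0.48, with 18 higher in the apex in 3 of 3 pairs, which 26.5% of all genes were. Dnm1, a dynamin of vesicle recycling, was the one member called in the paired fit of 23 samples (-0.67 ± 0.69, adjusted p = 0.0424). Of the 13 tested sodium and calcium channel genes, 12 were higher in the apex in 3 of 3 pairs (26.5% of all genes). Their median was -0.54, but none was called. Scn3a, a sodium channel subunit, was at 8.97, 8.58 and 8.43 in the apex and 8.09, 5.84 and 7.59 in the base, without overlap and with replicate 2 of the base far below the others (-1.49 ± 0.59, paired adjusted p = 0.0903). The 20 voltage-gated potassium channel genes had a median of -0.41. Of these Kcnip1, a regulator of transient potassium channels, was at -1.13 ± 0.40 without overlap and was called in the paired fit of 23 samples (adjusted p = 0.012; 0.202 with 24). These medians were lowest in pair 2: within pairs 1, 2 and 3 the presynaptic median was -0.41, -0.69 and -0.22 and the sodium and calcium channel median -0.35, -0.86 and -0.19.

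Against this balance, a few neuropeptide and calcium-binding genes were far higher in the base. Calb1, calbindin, a calcium buffer of some neurons and of cochlear epithelial cells, was at 8.69, 7.38 and 8.94 in the apex and 12.30, 10.86 and 12.61 in the base. No apical sample came near a basal one, and the difference of 3.58 ± 0.79 missed the threshold with all samples (adjusted p = 0.136; 0.0639 paired) and passed it without P32 hearing apex replicate 1, whose own Calb1 was high (0.0142 unpaired; 0.012 paired). Ncald, neurocalcin delta, was at 2.31 ± 0.60 (0.0196 in the last fit) and Caln1, a calmodulin-like protein, at 1.67 ± 0.52 (0.0407). Other calcium buffers had small differences: Calb2, calretinin, was at -0.26 ± 0.19 and Pvalb at 0.04, and the median of the 19 listed was 0.04.

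Tac1, the precursor of substance P, had the largest difference of all genes tested. It was at 6.63, 5.97 and 8.36 in the apex and 10.36, 10.52 and 13.47 in the base (4.47 ± 1.20, adjusted p = 0.259; 0.162 paired; 0.0304 paired without that sample). Replicate 3 was highest in both portions, and apical replicates 1 and 2 were below the median of all transcripts, so the 22.1-fold value is uncertain. The 13 tested neuropeptide genes had a median of 0.18, beside -0.04 for all genes. Of these, the paired fit of 23 samples called only Adcyap1 and Tac1, beside 1.62% of all genes called higher in the base. Gal, galanin, which injured neurons make, was at 9.04, 9.01 and 10.95 in the apex and 10.13, 12.25 and 11.87 in the base (1.75 ± 0.75, 0.172 in that fit). Ucn2, urocortin 2, had a difference below its SE and was not called (-0.38 ± 0.79, paired adjusted p = 0.9). The same held for Atf3 (-0.40 ± 0.70, 0.831 paired) and Gap43 (0.41 ± 0.56, 0.773 paired), which injured neurons raise.

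Among neurotrophic factors, Ntf3, neurotrophin 3, was at 7.93, 7.58 and 7.62 in the apex and 8.99, 8.69 and 9.17 in the base, and Bdnf at 7.05, 6.61 and 7.27 and at 7.28, 9.26 and 8.65. For both every basal sample was above every apical one, near the median of all transcripts, and neither was called (1.24 ± 0.54, 0.164 and 1.42 ± 0.69, 0.322 in the paired fit of 23 samples). Their receptors Ntrk2 (-0.08 ± 0.36) and Ntrk3 (-0.01 ± 0.36) had differences below their SE.

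Of the immune genes, those of MHC class II leaned to the base. Of 10 tested, 9 were higher in the base in 3 of 3 pairs (19.1% of all genes) and 5 had all basal samples above all apical ones (3.17%), with a median of 0.52 and no call. Cd74, the invariant chain, was at 13.41, 12.93 and 13.27 in the apex and 14.17, 14.01 and 13.87 in the base (0.81 ± 0.47, paired adjusted p = 0.439). The 24 macrophage and microglia genes had a median of 0.14 and no call. In 3 of 3 pairs, 9 were higher in the base (19.1% of all genes) and 2 in the apex (26.5%). All basal samples lay above all apical ones for 2 members (3.17%), and none had the opposite. Single members went both ways, with Fcgr2b at 1.63 and Gpnmb at -0.94, while Cd68 was at -0.09 ± 0.31 and Aif1 at 0.49 ± 0.60. Immediate early genes, which mark recent activity or handling, had a median of -0.43 over 16 genes and no call. Fos was at 10.38, 11.91 and 11.34 in the apex and 9.98, 10.91 and 10.72 in the base (-0.68 ± 0.37).

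Among genes of tissues around the ganglion, the epithelial and marrow lists had medians towards the base, the epithelial one not in every pair. Epithelial genes had a median of 0.78 over 17 genes, but it was -0.12 in pair 1 and 1.14 and 1.13 in pairs 2 and 3. Bpifa1, a secreted protein of airway epithelium, was at 9.48, 6.83 and 9.54 in the apex and 8.67, 14.17 and 14.82 in the base, so basal replicates 2 and 3 were high and basal replicate 1 was not (3.94 ± 1.58, paired adjusted p = 0.382). Replicate 1 is on the other array platform. The 9 genes of marrow granulocytes and mast cells had a median of 1.09, and of 0.34, 1.23 and 0.79 within pairs 1, 2 and 3. Of the 9, 7 were higher in the base in 3 of 3 pairs (19.1% of all genes). All basal samples lay above all apical ones for 2 of them (3.17%), and none was called. Lcn2 was at 1.68 ± 0.95 and S100a9 at 1.29 ± 0.85. Summed over the epithelial list the apical samples held 23574 to 36779 linear units and the basal ones 22620 to 88047. The part of these tissues in the other differences was not tested. The median was -0.04 over 21 housekeeping genes and -0.11 over 21 genes of heat shock and RNA quality, and none of them was called.

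**Figure D3:**
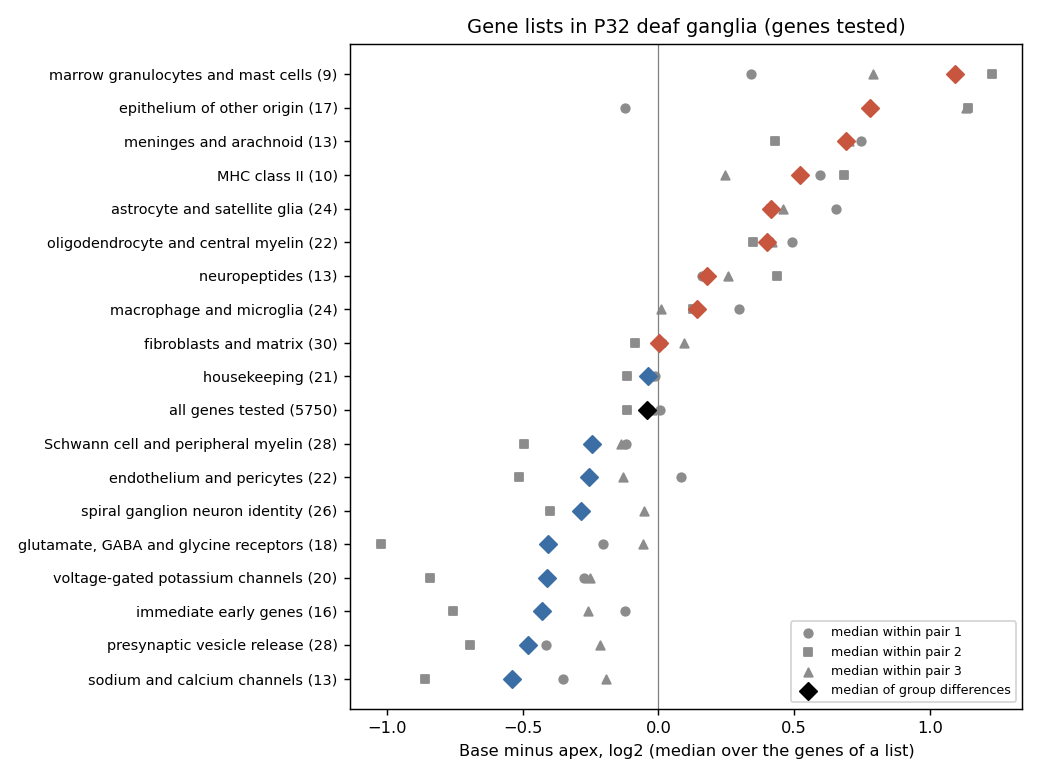
Median log2 difference of base minus apex (x axis) over the tested genes of 18 lists and of all genes; diamonds are the medians of the group differences and grey symbols those within each of the 3 pairs. The lists of astrocytes and satellite glia, oligodendrocytes, meninges and MHC class II lie to the right of all genes in every pair. Presynaptic and channel lists lie to the left in every pair, and the epithelial list lies at -0.12 in pair 1.

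The same contrast in P32 hearing ganglia shows whether the portions differ otherwise after deafening. All 16 genes called in the paired fit of deaf ganglia differed in the same direction in hearing ganglia, and all 16 differences were smaller there, with and without P32 hearing apex replicate 1. In hearing ganglia the contrast called 0 genes (0%) with and without the block. Since the 16 were chosen by their deaf values, the sizes are a description. Slc7a10 was at 1.27 ± 0.45 in hearing ganglia, Thrsp at 1.34 ± 0.51 and Adtrp at 1.05 ± 0.39, and without P32 hearing apex replicate 1 at 1.80 ± 0.44, 1.91 ± 0.51 and 1.44 ± 0.41. The limma test of the difference itself called 0 genes (0%) with and without the block, 6 genes had an unadjusted p under 0.05 and the smallest adjusted p was 0.9998. The smallest unadjusted p values were those of Rapgef5, an exchange factor for Rap proteins (1.21 in deaf and 0.11 in hearing ganglia, difference 1.10 ± 0.32), Cfap20dc (0.89 ± 0.31) and Ccn3 (-0.96 against 0.17, -1.13 ± 0.41). Slc7a2, a cationic amino acid transporter, followed at 0.78 ± 0.31, Adtrp at 1.35 ± 0.55 and Adhfe1 at 0.63 ± 0.29. List medians in hearing ganglia were 0.27 for astrocyte genes (0.41 in deaf), 0.27 for oligodendrocyte genes (0.40) and 0.57 for meningeal genes (0.69). Those of MHC class II, marrow and epithelial genes were 0.51 (0.52), 1.035 (1.09) and 0.90 (0.78). Those of presynaptic, sodium and calcium channel, neuron identity and Schwann cell genes were -0.30 (-0.48), -0.45 (-0.54), -0.17 (-0.28) and -0.01 (-0.25). The medians were not tested. P32 hearing apex replicate 1, which correlated best of its group with the deaf basal samples, is part of the hearing difference. Without it the difference in hearing ganglia was 2.10 ± 0.63 for Aqp4 (1.15 with it), and 6 genes were called there without the block and 0 with it. The interaction was then 0.95 ± 0.54 for Adtrp and 0.52 ± 0.31 for Adhfe1, neither with an unadjusted p under 0.05. Again no interaction was called, at 37 genes with an unadjusted p under 0.05. So a portion effect that differs with deafness was not detectable with 3 pools a group, for any gene.

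The P60 deaf ganglia came from older rats given the same injections. Again all 16 genes differed in the same direction as at P32, and 15 of the 16 differences were larger at P32, Fst being the exception at -3.68 ± 0.33. At P60 the unpaired fit called 42 genes (0.73%) and the paired fit 191 (3.32%), and 11 of the 16 were among the latter. Without P32 hearing apex replicate 1 the unpaired count was 76. Among glial genes the differences at P60 were 3.88 ± 0.69 for Aqp4, 2.76 ± 0.47 for Ntsr2, 2.87 ± 0.53 for Mog and 4.02 ± 0.85 for Ermn, and those of Adcyap1 (0.69 ± 0.63) and Tac1 (2.65 ± 1.20) were smaller than at P32. The medians at P60 were 1.08 for astrocyte genes and 0.71 for oligodendrocyte genes. None of these differences between ages passed the test of the difference, which called 0 genes (0%) with and without the block in limma (smallest adjusted p 0.9991, 33 genes with an unadjusted p under 0.05). The smallest p values were those of Fgf18, a growth factor (-0.26 at P32 and -1.62 at P60, difference 1.37 ± 0.39), Rgs7bp (0.80 ± 0.28) and Lurap1l (1.01 ± 0.37). Btg2, Pdk4 and Zc3hav1 followed at 1.13 ± 0.44, -1.99 ± 0.77 and -1.28 ± 0.50. For Fst the difference between the ages was 1.16 ± 0.46.

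**Figure D4:**
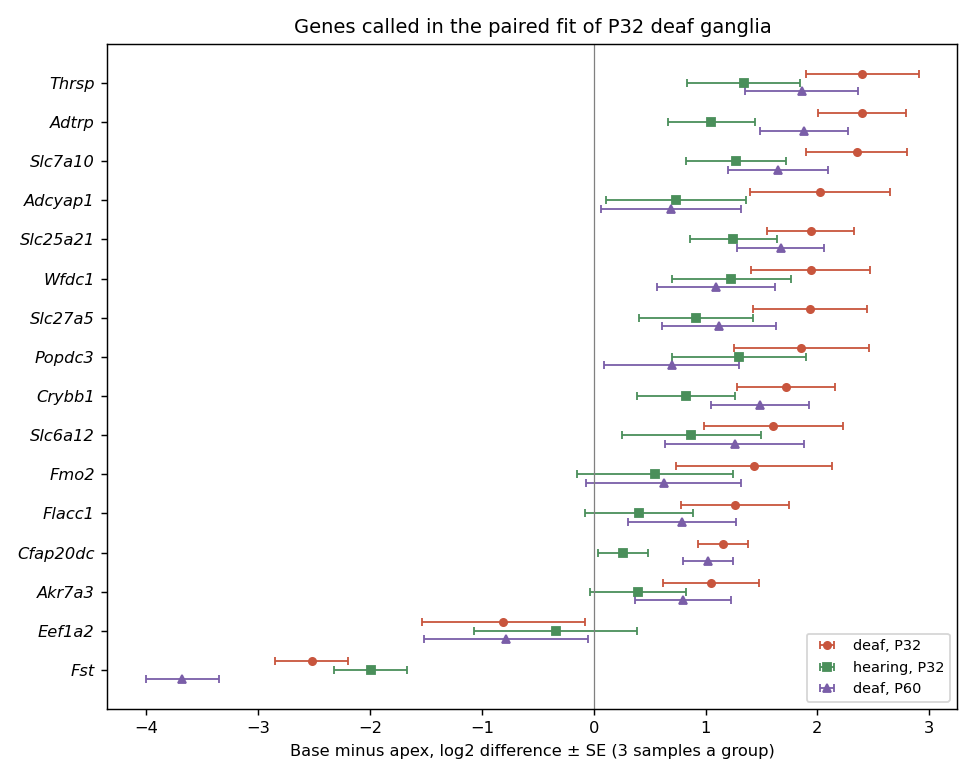
Base minus apex in log2 units ± SE (x axis, 3 samples a group) for the 16 genes called in the paired fit of P32 deaf ganglia, in deaf ganglia at P32, hearing ganglia at P32 and deaf ganglia at P60. All 16 genes point the same way in the 3 comparisons; since the genes were chosen by the first of them, its larger sizes are a description.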

How the data were processed

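Rat spiral ganglia were profiled on 1-colour NimbleGen arrays. The deposited values are intensity values on a linear scale, which the authors normalized with RMA, per the submitters' processing notes (version not given in the sources used here), and averaged over technical replicates, per the labels. log2 was taken here. Samples numbered 1 lie on a platform with 8 samples, those numbered 2 and 3 on another with 16. Whether the platforms were normalized together, and which rule chose the 14138 of 26419 transcripts in the series table, is not given there. RefSeq (GRCr8, names only) named 5828 transcripts, and the brightest was kept for each of 5750 genes.

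limma 3.58.1 in R 4.3.3 was fitted to all 24 samples with 8 group means and platform (15 residual degrees of freedom), two-sided, with Benjamini-Hochberg adjustment. It was tested on simulated data. An exact permutation test of 3 against 3 samples cannot go below p = 0.1 and was not used. Same-numbered apex and base samples deviated together from the mean of their portion (correlations 0.919, 0.852 and 0.882). Centring on the mean of 3 samples itself pushes the correlations of other pairs down (-0.695 to -0.181). Without centring, correlations were 0.976, 0.941 and 0.977 for equal numbers and 0.763 to 0.894 for others. The paired fit (8 residual degrees of freedom, platform absorbed) is therefore given where it changes a call. For number 1 this check does not separate pairing from platform. The pairing comes from the numbers and this check, since the labels do not say what a number marks.

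The comparison and the 47 gene lists (732 of 1518 symbols tested) were chosen with earlier results of these data known. The rule for named genes was the 15 largest called differences each way, 4 genes a list by p, and the 6 smallest p of each interaction, 177 genes in all. Genes named from the paired fits (92 more), further list members and marker genes were chosen after their values were seen. Alternatives were other normalizations, filters, tables, variance models and left-out samples.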

Additional observations from a re-analysis of the deposited data

Results flagged for a closer look

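Of the 8310 transcripts that the RefSeq table does not name, and which no comparison above uses, 10 (0.12%) were called with the replicate block over 24 samples when all 14138 transcripts were fitted, 8 higher in the base and 2 in the apex. Without the block 0 were called, and with the block over the 6 P32 deaf samples 16, all higher in the base.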

How the results depend on the processing

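The count of genes called in P32 deaf base against apex was 2 in the unpaired fit of all samples and depends on how the spread is estimated. With the replicate block it was 16 over 24 samples and 41 over the 6 P32 deaf samples, 8 of them shared, and 124 with the block as a random term (correlation 0.629) and 114 with the block but without P32 hearing apex replicate 1. The last 2 were added after seeing the data, as was leaving out a pair: the count was 1 without P32 deaf pair 1, 0 without pair 2 and 0 without pair 3. Without a block it was 24 without P32 hearing apex replicate 1, 4 with the platform tables, 1 without the platform term, 1 without the dimmest genes (a filter that removes Adtrp) and 1 with trend and robust. It was 0 with only the 6 P32 deaf samples (269 genes with an unadjusted p under 0.05) and 0 with only the 16-sample platform (144). Leaving out 1 of the 6 samples gave 1 to 4. Fst was called in each of these (adjusted p up to 0.0445), while Adtrp lost the call without any 1 of these samples except apex replicate 3 (adjusted p 0.069 to 0.27). Quantile normalization gave 3 genes, and centring on the 75th percentile, an offset of 64 and averaging transcripts gave 2. No difference of a named gene that was called changed sign under the alternatives run. Both interaction tests called 0 genes under each alternative run. With 3 pools a group and dim values of unknown background, small differences were not detectable.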

Other observations

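Some gene families that were not listed as families were chosen after their values were seen. Flavin monooxygenases oxidize foreign amines and sulfides. In the paired fit without P32 hearing apex replicate 1, Fmo1 was called, at 11.51, 11.01 and 12.06 log2 units in the apex and 13.21, 12.31 and 13.63 in the base (1.52 ± 0.49, adjusted p = 0.0314). Fmo2 (1.43 ± 0.69, 0.0228) and Fmo4 (0.89 ± 0.54, 0.0461) were called there too, and of these 3 genes the paired fit of 24 samples called Fmo2.

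Of 141 tested genes of the solute carrier families, 13 (9.22%) were called in that fit, all of them higher in the base, beside 1.98% of all genes, while the median over the 141 was -0.01. Beside those described above they include Slc38a3, a glutamine transporter (1.52 ± 0.32, adjusted p = 0.0228), Slc6a20a, a proline transporter (1.36 ± 0.34, 0.0415), and Slc22a4, a carrier of organic cations (1.30 ± 0.51, 0.0181). Further genes called there, chosen after their values were seen, were Rpe65, Stra6 and Fabp4. Rpe65, the retinoid isomerase of pigment epithelium, was at 8.08, 9.19 and 9.53 in the apex and 11.29, 11.66 and 11.44 in the base (2.53 ± 0.65, 0.0461), Stra6, a receptor for retinol-binding protein, at 1.12 ± 0.28 (0.0228), and Fabp4, a fatty acid carrier of fat cells and vessels, at 3.29 ± 0.80 (0.0228). Gh1, growth hormone, was at 7.74, 6.78 and 8.61 in the apex and 9.41, 10.24 and 10.98 in the base (2.50 ± 1.30, 0.0152).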
